A study of Mus musculus with 18 samples.

Results

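The respiratory chain subunit genes are the nuclear genes for the protein subunits of complexes I to V of the inner mitochondrial membrane. Members were taken by gene symbol from probes that carry a single symbol, with the symbol starts Ndufa, Ndufb, Ndufc, Ndufs or Ndufv followed by a digit, Uqcr, Sdha to Sdhd, Cox4 to Cox8 followed by a, b or c, and Atp5. This gave 79 genes of 19938 genes with such a probe, on 103 probes, and the probe with the highest mean was used for each of the 16 genes that had several. The 79 genes were 35 of complex I, 4 of complex II, 8 of complex III, 15 of complex IV and 17 of complex V, the ATP synthase. Within this rule the symbols chose the genes, and mean signal only the probe. The rule was set with earlier results of these data known. Cox7c, Ndufb1, Ndufb4, Ndufb4b and Ndufb4c match the symbol rule and had no probe with that symbol alone, and no probe carried the symbol of a mitochondrially encoded subunit.

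The cells came from embryonic fibroblasts of mice with the ROSA-rtTA transactivator and a Nanog-GFP reporter, so the transgenes respond to doxycycline. A piggyBac transposon carried either the OK+9MS cassette with the long Klf4 cDNA, called high-KLF4, or the OKMS cassette with the short Klf4 cDNA, called low-KLF4, and mCherry marks transgene expression in both. Under 1 µg/mL doxycycline, mCherry+ cells were sorted by FACS on days 2, 4, 8 and 18. With them were iPSC clones A10 and H10 from high-KLF4 and A7 and A9 from low-KLF4, primary keratinocytes of pups at postnatal day 2, and mESCs of the Nanog-GFP line 1A2. Together these made 18 arrays in 12 groups: 2 arrays per cassette on day 8 and 1 on each other day, 2 clones per cassette, 2 keratinocyte arrays and 2 mESC arrays. The methods call the day 8, keratinocyte and mESC arrays separate experiments. A sort on mCherry leaves out cells that have silenced the transgene, each clone is a single line, and mESCs are 1 line.

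Complex I takes electrons from NADH and complex II takes them from succinate. Both pass them through ubiquinone to complex III and by cytochrome c to complex IV, which reduces oxygen. The proton gradient that complexes I, III and IV build drives complex V, which makes ATP. Pluripotent stem cells are known for a high rate of glycolysis, and several small subunits of complex IV exist as isoforms with tissue-restricted expression. In RNA of bulk samples, fewer cells of a type and less RNA per cell cannot be told apart, and nothing here measures respiration.

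The labels were checked against marker lists. The summed signal of 8 keratinocyte markers was 55190 and 55410 in keratinocytes, against 1711 and 1728 in mESCs. That of 8 pluripotency markers was 38450 to 39380 in the 4 clones, against 35440 and 40090 in mESCs. The 7 measured fibroblast markers summed to 26390 and 30130 on the day 8 arrays numbered 1 of high-KLF4 and low-KLF4 cells, and to 6789 and 6563 on the arrays numbered 2, so the numbered arrays stood apart in both cassettes. The keratinocyte markers summed to 18170 and 24390 in day 8 high-KLF4 cells, against 4143 and 4612 in day 8 low-KLF4 cells. The mESC arrays also differed from each other by more than 0.5 log2 units in 11 of the 79 genes. No detection limit comes with the signals, and Cox7b2 and Cox8b, at mean log2 signals of 5.07 and 6.33, were the only members among the dimmest 30% of probes.

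Most chain genes varied little over the 18 arrays, and a few isoforms varied by far more. The range over the arrays, highest minus lowest log2 signal, had a median of 0.83 over the 79 genes, against 0.97 over all 23410 tested probes. It exceeded 1, a 2-fold difference, for 21 of the 79 genes (26.6%), against 48.4% of all tested probes. The widest ranges were those of Cox6b2 at 3.83, Cox7a1 at 3.0, Ndufa4l2 at 2.09, Atp5md at 2.05 and Uqcrh at 2.00. Cox6b2 and Cox7a1 encode the testis and the heart and skeletal muscle isoforms of complex IV subunits 6B and 7A, and Ndufa4l2 is a hypoxia-induced relative of Ndufa4. Ndufa4 was named for complex I and is now counted with complex IV; it stays with complex I here, as its symbol places it.

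**Figure D1:**
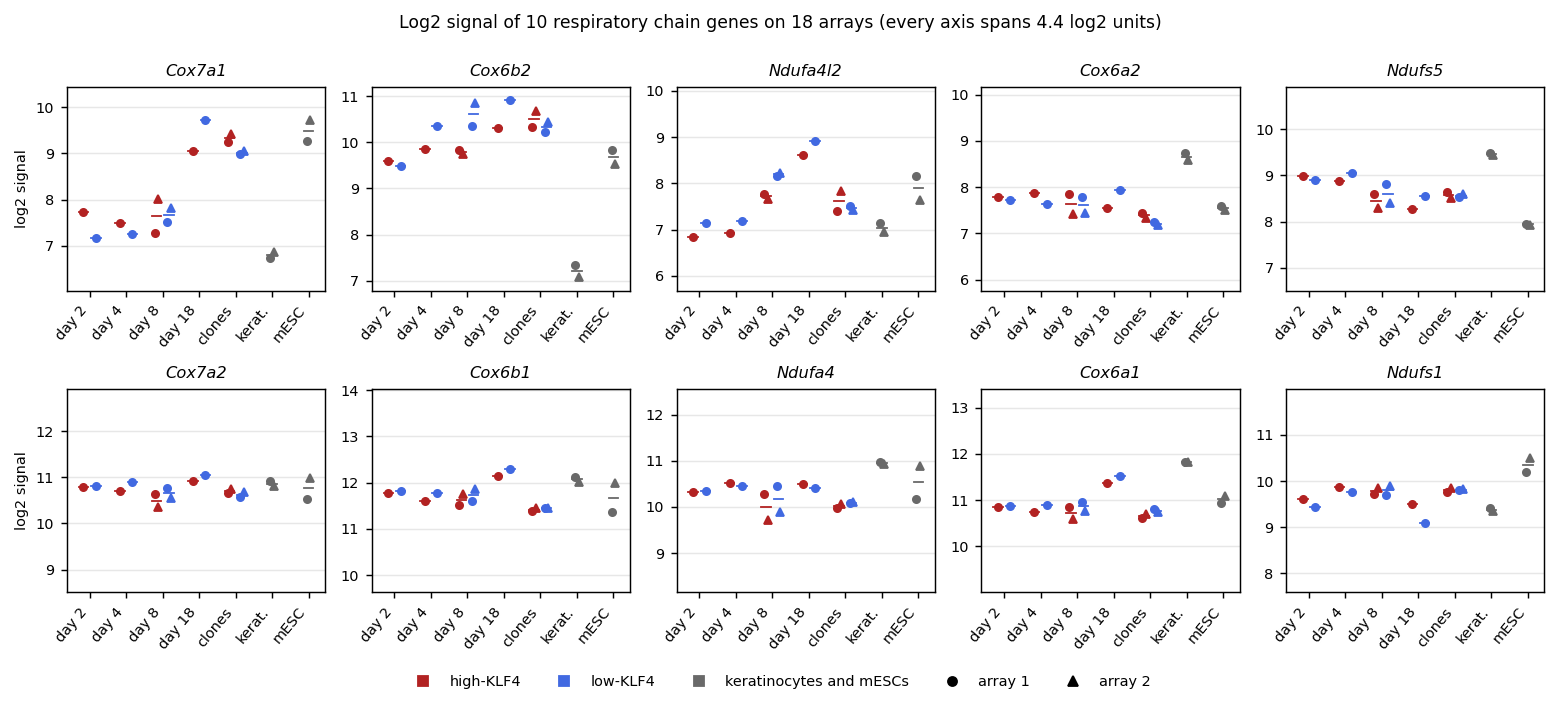
Log2 signal (vertical axes, each spanning 4.4 log2 units) of 10 genes by day, clone and cell type (horizontal axes), high-KLF4 red, low-KLF4 blue, keratinocytes and mESCs gray; circles are array 1, triangles array 2 and bars group means. Cox7a1, Cox6b2 and Ndufa4l2 moved over ranges of 3.0, 3.83 and 2.09, while the paired genes beneath them, Cox7a2, Cox6b1 and Ndufa4, stayed in narrower bands.

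Cox7a1 was low in sorted cells until day 8 and high on day 18. For days 2, 4, 8 and 18 its signal was 212, then 181, then 156 and 260, then 533 in high-KLF4 cells, against 144, then 152, then 183 and 225, then 843 in low-KLF4 cells. It was 608 and 689 in the high-KLF4 clones, 507 and 530 in the low-KLF4 clones, 106 and 116 in keratinocytes, and 613 and 850 in mESCs. Both day 18 arrays thus lay above both low-KLF4 clones, that of high-KLF4 lay below both high-KLF4 clones, every array of days 2 to 8 lay below all clones, and keratinocytes lay below every other array. Its ubiquitous counterpart Cox7a2 stayed between 1318 and 2129 on all 18 arrays.

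Cox6b2 was low in keratinocytes, and in each cassette its day 2 signal was below that of every later sorted array. In the same order of days its signal was 774, then 928, then 911 and 853, then 1268 in high-KLF4 cells, against 721, then 1315, then 1314 and 1853, then 1918 in low-KLF4 cells. It was 1284 and 1646 in the high-KLF4 clones, 1203 and 1394 in the low-KLF4 clones, 163 and 135 in keratinocytes, and 917 and 738 in mESCs. From day 4 the low-KLF4 arrays were above the high-KLF4 arrays of the same day, and the keratinocyte arrays overlapped with no other group. Cox6b1, the somatic isoform, ranged from 2634 to 5008, with its lowest signal on an mESC array and its highest on the low-KLF4 day 18 array.

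Ndufa4l2 climbed over the days in both cassettes. It had 114, then 121, then 217 and 204, then 393 in high-KLF4 cells, against 142, then 145, then 287 and 298, then 486 in low-KLF4 cells. It was 170 and 230 in the high-KLF4 clones, 181 and 172 in the low-KLF4 clones, 141 and 123 in keratinocytes, and 285 and 198 in mESCs. High-KLF4 was below low-KLF4 in every same-day pair, and both day 18 arrays lay above all clones and mESCs. Ndufa4 had 846 to 2018 on the 18 arrays.

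The sequences before the start sites of these isoforms are shown because the members of each pair share a protein role and differ in how their RNA moved. RefSeq promoters (GRCm38.p6, the 250 bases before the start site) matched 66 of the 79 genes, Ndufa4l2 not among them. Searched on both strands were NRF1 (GCGCANGCG), the ETS site that GABP binds (CCGGAAG), YY1 (AAGATGGCG), the ERR half-site (AAGGTCA), the hypoxia response core (ACGTG) and the GC box of KLF and SP factors (GGGCGG). Matches are in capitals, and in the 6 promoters printed only NRF1 matches overlap: the first run of capitals in Cox6a1 holds the NRF1 letters on both strands.
Cox7a1 (chr7:30183921-30184170, plus strand): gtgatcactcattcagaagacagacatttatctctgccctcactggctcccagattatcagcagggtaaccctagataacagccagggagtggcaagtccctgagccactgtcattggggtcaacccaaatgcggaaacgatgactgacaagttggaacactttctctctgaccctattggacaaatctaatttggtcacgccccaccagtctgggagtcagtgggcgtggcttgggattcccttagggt
Cox7a2 (chr9:79759854-79760103, minus strand): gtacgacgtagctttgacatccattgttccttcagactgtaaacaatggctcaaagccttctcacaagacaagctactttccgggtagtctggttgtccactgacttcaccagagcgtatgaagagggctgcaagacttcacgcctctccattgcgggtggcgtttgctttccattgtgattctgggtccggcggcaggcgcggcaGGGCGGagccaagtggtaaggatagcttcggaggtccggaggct
Cox6b2 (chr7:4753095-4753344, minus strand): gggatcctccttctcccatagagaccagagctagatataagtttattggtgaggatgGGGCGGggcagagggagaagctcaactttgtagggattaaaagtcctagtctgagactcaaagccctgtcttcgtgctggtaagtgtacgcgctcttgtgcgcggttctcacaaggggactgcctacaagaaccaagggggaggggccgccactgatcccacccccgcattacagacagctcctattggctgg
Cox6b1 (chr7:30626115-30626364, minus strand): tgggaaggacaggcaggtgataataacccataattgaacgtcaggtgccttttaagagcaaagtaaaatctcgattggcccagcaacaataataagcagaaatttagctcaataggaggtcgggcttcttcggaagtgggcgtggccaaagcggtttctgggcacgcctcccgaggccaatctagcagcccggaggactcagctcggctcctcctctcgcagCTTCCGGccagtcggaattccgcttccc
Cox6a1 (chr5:115348959-115349208, minus strand): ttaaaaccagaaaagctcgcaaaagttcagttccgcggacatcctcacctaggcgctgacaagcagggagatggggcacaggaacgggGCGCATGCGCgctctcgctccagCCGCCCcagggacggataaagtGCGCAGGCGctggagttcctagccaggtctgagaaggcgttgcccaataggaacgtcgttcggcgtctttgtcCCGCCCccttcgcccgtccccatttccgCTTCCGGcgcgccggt
Ndufs5 (chr4:123718187-123718436, minus strand): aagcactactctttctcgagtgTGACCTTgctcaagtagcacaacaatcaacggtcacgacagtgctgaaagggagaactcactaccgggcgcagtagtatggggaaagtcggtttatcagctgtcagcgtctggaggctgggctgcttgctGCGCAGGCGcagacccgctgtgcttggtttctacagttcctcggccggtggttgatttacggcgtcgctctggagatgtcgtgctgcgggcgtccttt
Cox7a1 held none of the 6 motifs in this window. Cox7a2 held a GC box, Cox6b2 a GC box and Cox6b1 an ETS site. Cox6a1 and Ndufs5, shown for their rise in keratinocytes, held NRF1 matches, at 2 places in Cox6a1 and 1 in Ndufs5. Cox6a1 also held GC boxes and an ETS site, and Ndufs5 an ERR half-site. Over the 66 genes the NRF1 letters were in 13 (19.7%), against 5.86% of the 27025 genes with RefSeq promoters of this length, and the ETS letters in 12 (18.2%), against 7.83%. The GC box was in 24 genes (36.4%), against 35.4% of all genes, the hypoxia core in 14 (21.2%), against 18.5%, the ERR half-site in 4 (6.06%), against 4.7%, and YY1 in 1 (1.52%), against 0.71%. A match is a description of letters and was not tested for binding.

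On day 8 most chain genes of every complex had estimates slightly below 0 in high-KLF4 against low-KLF4 cells, and no single gene passed the test. The estimate was below 0 for 72 of 79 genes, against 56.2% of all tested probes, with a median of -0.16 against -0.03 on the log2 scale. None of the 79 was called by limma at an adjusted p under 0.05, where 3.99% of all tested probes were, and 11 had an unadjusted p under 0.05 (13.9%), against 16.2%. Both high-KLF4 arrays lay below both low-KLF4 arrays for 30 genes (38.0%), against 18.8% of all probes, and above both for 0 genes, against 16.6%. All 35 complex I genes, 16 of 17 complex V genes, 13 of 15 complex IV genes, 5 of 8 complex III genes and 3 of 4 complex II genes had estimates below 0.

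The largest difference was that of Cox6b2, at -0.82 (95% interval -1.28 to -0.36, limma adjusted p = 0.064). Without the low-KLF4 array 1 it was -1.07 (limma adjusted p = 0.019), and after a second quantile normalization -0.90 (limma adjusted p = 0.046). Ndufa4l2, at -0.48, had a limma adjusted p of 0.25. Named after their values were seen, Ndufa2, an accessory subunit of complex I, differed by -0.35 (limma adjusted p = 0.062) and Atp5d, the delta subunit of the ATP synthase, stood at the other end with 0.16 (limma adjusted p = 0.54). The complex II genes Sdha, Sdhb, Sdhc and Sdhd, for the flavoprotein, the iron-sulfur subunit and the pair of membrane anchors, were at 0.07, -0.12, -0.13 and -0.05, all with 95% intervals that include 0. Leaving out either array numbered 1 leaves a lone array in a group. It brought calls of lower chain genes, and it raised the calls among all probes as well. Leaving out either array numbered 2 brought no call of a chain gene and lowered the calls among all probes.

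The same comparison at single days has 1 array per cassette and so no replicate check. On day 2, 39 of 79 genes were below 0 in high-KLF4, against 44.1% of all probes, with a median difference of 0.00. On day 4 it was 68 genes, against 57.1%, with a median of -0.15. The day 8 arrays numbered 1 had 62 below 0, against 52.4%, with a median of -0.12, and those numbered 2 had 72, against 55.9%, with a median of -0.21. On day 18 it was 41 genes, against 56.6%, with a median of -0.02. The medians thus lay below 0 on days 4 and 8 and at or near 0 on days 2 and 18, and the difference between days was not tested. Complex IV departed from this on day 18, when 14 of its 15 genes were below 0, with a median of -0.14. The keratinocyte markers had summed signals of 10480, 18930 and 7004 in high-KLF4 cells on days 2, 4 and 18, against 2254, 2219 and 3206 in low-KLF4 cells, and their part in these differences was not tested.

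**Figure D2:**
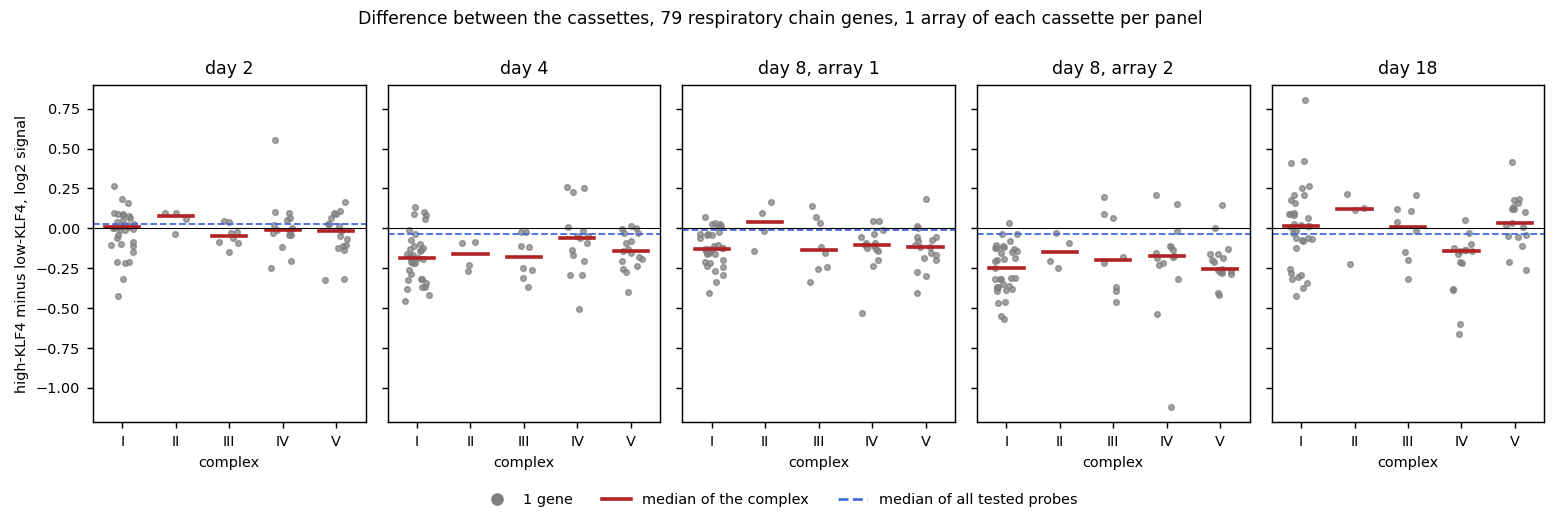
High-KLF4 minus low-KLF4 log2 signal (vertical axis) of 79 chain genes by complex (horizontal axis) in 5 same-day pairs of arrays; gray points are genes, red bars medians of a complex and the dashed blue line the median of all tested probes. The medians of complexes I, III, IV and V lie below that line on day 4 and in both day 8 pairs, and the lowest point, on the day 8 arrays numbered 2, is Cox6b2 at -1.12.

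High-KLF4 was below low-KLF4 in all 5 pairs for 17 of the 79 genes, where 11.5% of all probes were, and above in all 5 for 1 gene, Atp5d, where 11.1% were. The 17 were Ndufa2, Ndufa4l2, Ndufb8, Ndufv2 and Ndufv3 of complex I, Uqcr10, Uqcr11 and Uqcrq of complex III, Cox6a1, Cox6b1, Cox7a2, Cox7b, Cox8a and Cox8b of complex IV, and Atp5g2, Atp5md and Atp5o of complex V. Cox7a1 and Cox6b2 were not among them: on day 2 their differences were 0.55 and 0.10. In the limma fit of all 10 sorted arrays with day as a block, 0 of 79 genes were called, where 0.162% of all probes were, and 11 had an unadjusted p under 0.05, against 15.9%. Ndufa4l2 came nearest, at -0.37 (95% interval -0.51 to -0.23, limma adjusted p = 0.088), and it was called with the replicate number as a further block (limma adjusted p = 0.044).

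Day 8 cells were compared with the iPSC clones of their own cassette, and in high-KLF4 the genes called came from each complex. In high-KLF4, 17 of 79 genes were lower on day 8 than in the clones and 0 were higher (21.5% called in all, where 28.2% of all probes were; 14.7% of probes were lower and 13.5% higher). In low-KLF4, 3 were lower and 2 higher, where 19.3% of all probes were called, 10.8% lower and 8.43% higher. The lower genes in high-KLF4 were 6 of complex I, 1 of complex II, 1 of complex III, 4 of complex IV and 5 of complex V. The contrast between the cassettes was tested as an interaction, in which 0 of 79 genes were called, where 0.824% of probes were, and 5 had an unadjusted p under 0.05, against 10.3%. Its estimates were below 0 for 73 genes, against 54.6% of all probes. The pluripotency markers summed to 5002 and 5026 in day 8 high-KLF4 cells and 6041 and 6245 in day 8 low-KLF4 cells, and were all called lower than in the clones. Of the 8 keratinocyte markers 7 were called higher in day 8 high-KLF4 cells and 5 in day 8 low-KLF4 cells than in clones, where they summed to 2508 to 2619. The fibroblast markers, at 4758 to 6147 in the clones, differed by a median of 1.53 on the log2 scale for high-KLF4 and 1.45 for low-KLF4, with 0 of 7 called. The part of these markers in the results was not tested.

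Cox7a1 was the largest fall in both cassettes, at -1.69 (95% interval -2.24 to -1.13, limma adjusted p = 0.0014) in high-KLF4 and -1.35 (-1.91 to -0.79, limma adjusted p = 0.0067) in low-KLF4. Uqcr10, a small subunit of complex III, had 934 and 855 in day 8 high-KLF4 cells and 1289 and 1336 in their clones, and 1115 and 967 in day 8 low-KLF4 cells and 1340 and 1330 in their clones. Its differences of -0.55 (limma adjusted p = 0.0033) and -0.36 (limma adjusted p = 0.032) both passed. Ndufv2, which carries an iron-sulfur cluster in the NADH-oxidizing module, fell by 0.67 (limma adjusted p = 0.0025) and by 0.37 (limma adjusted p = 0.045). These 3 genes passed in both cassettes, with no overlap between day 8 and clone arrays. In low-KLF4, Ndufv2 was not called without any 1 of the 4 arrays, only Cox7a1 of the 3 was still called without clone A7 or without the day 8 array 2, and none without A9.

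Within high-KLF4, the further falls by the rule for named genes were Ndufb3 and Ndufc1 of complex I, Sdhc of complex II, Cox6b2 of complex IV and Atp5md and Atp5h of complex V. Ndufc1 had 1084 and 1195 on day 8, against 1838 and 1907 in the clones, a difference of -0.72 (95% interval -0.99 to -0.45, limma adjusted p = 0.0027). Ndufb3 had 233 and 162, against 312 and 334, a difference of -0.73 (limma adjusted p = 0.033). Atp5h, subunit d of the peripheral stalk, had 3065 and 2088, against 4327 and 4193, a difference of -0.75 (limma adjusted p = 0.015). In each of these genes both day 8 arrays lay below both clones, and array 2 was the lower one for Ndufb3 and Atp5h.

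Atp5md, a small membrane subunit of the ATP synthase, is read here from the brightest of its 3 probes. It had 3437 and 1808 on day 8, against 7250 and 6632 in the clones, a difference of -1.48 with a wide 95% interval of -2.44 to -0.51 (limma adjusted p = 0.031). Cox6b2 differed by -0.72 (limma adjusted p = 0.029) and Sdhc, a membrane anchor of complex II with 1846 and 1690 against 2161 and 2363, by -0.36 (limma adjusted p = 0.034). The others called were Ndufv1, Ndufv2, Ndufv3, Ndufa2, Uqcr10, Cox6c, Cox7b, Atp5e, Atp5k and Atp5pb. Ndufv1, Ndufv2 and Ndufv3 are among the subunits of the NADH-oxidizing end of complex I, and not all of them. Without the day 8 array 2 of high-KLF4, without clone A10 or without H10, fewer chain genes were called lower, and fewer of all probes were as well. Cox7a1, Ndufc1, Ndufv2 and Uqcr10 were called in all 9 alternatives run.

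The 2 genes higher on day 8 in low-KLF4 were Ndufb8 and Ndufa4l2. Ndufb8, an accessory subunit of the membrane arm of complex I, had 1229 and 1336 on day 8, against 679 and 751 in the clones, a difference of 0.84 (95% interval 0.33 to 1.36, limma adjusted p = 0.034). Ndufa4l2 differed by 0.73 (0.30 to 1.16, limma adjusted p = 0.030). In high-KLF4 their differences were 0.48 and 0.09, and neither passed. Both calls in low-KLF4 were lost when any 1 of the 4 arrays was left out.

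**Figure D3:**
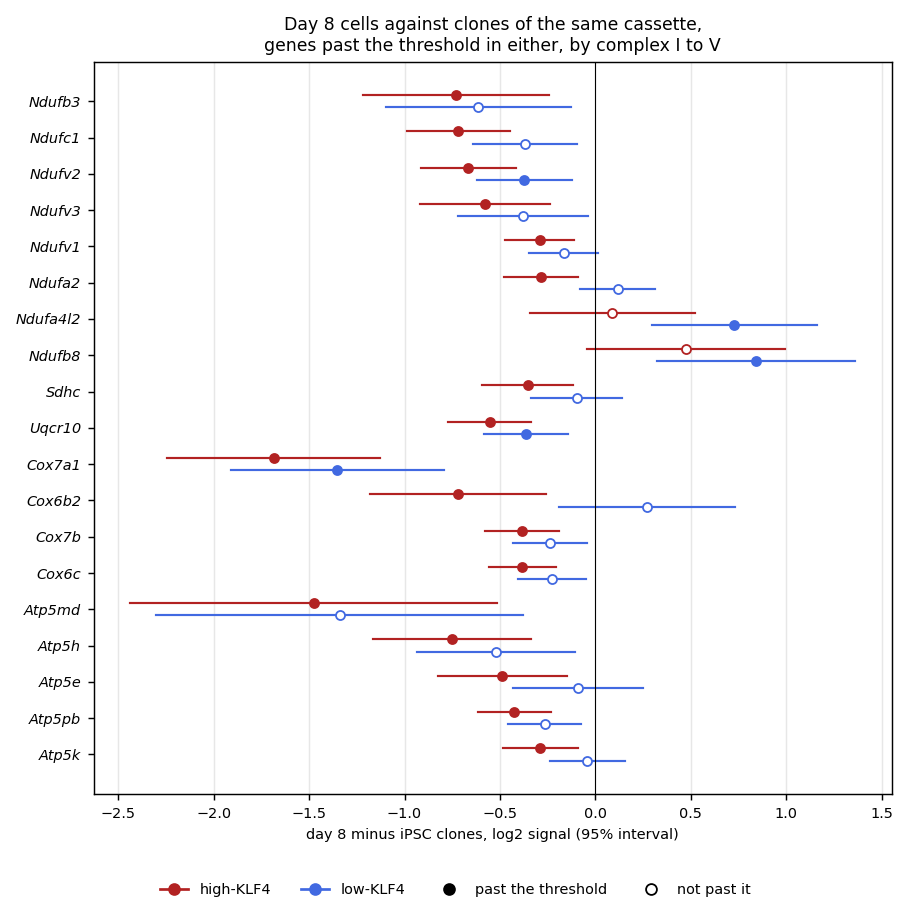
Day 8 minus iPSC clones of the same cassette in log2 signal (horizontal axis) for the 19 genes called in either cassette (vertical axis, by complex), with high-KLF4 in red above low-KLF4 in blue; bars are 95% intervals, and filled points passed an adjusted p of 0.05. Cox7a1, Ndufv2 and Uqcr10 have filled points in both colors, all left of 0, and Ndufa4l2 and Ndufb8 are filled right of 0 in low-KLF4 only.

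Over the days of doxycycline, few chain genes were called on day 8 and more on day 18, in both directions. Calls among all probes rose in the same way. Within low-KLF4, 66 of 79 genes were above their day 2 signal on day 4, against 52.3% of all probes, with a median of 0.09. Within high-KLF4 it was 30 of 79, against 40.2%, with a median of -0.05. On day 8 the medians against day 2 were -0.12 and -0.24 on the high-KLF4 arrays and -0.03 and -0.08 on the low-KLF4 arrays, with medians of all probes between -0.07 and -0.04. On day 18 they were 0.07 for high-KLF4 and 0.03 for low-KLF4, against -0.10 and -0.02 over all probes. A rise of at least 2-fold from day 2 was seen for 2 chain genes under high-KLF4 and 4 under low-KLF4. A fall of that size was seen for 0. Of all 23410 probes, 942 rose and 1005 fell by at least 2-fold on the high-KLF4 array. On the low-KLF4 array 1049 probes rose and 1061 fell by as much. With the cassettes taken as repeats of a day, the limma fit called 1 of 79 genes on day 8 against day 2, where 1.01% of all probes were called, and 7 higher and 7 lower on day 18 against day 2, where 5.45% and 8.56% were.

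The gene called on day 8 was Ndufa4l2, at 0.96 (95% interval 0.77 to 1.16, limma adjusted p = 0.014). It was not called without either day 2 array or in a fit of the arrays of days 2 and 8 alone. On day 18 it stood at 1.78 (1.56 to 2.00, limma adjusted p = 0.000245) and was called in all 10 alternatives run. Cox7a1 rose by 1.94 (1.17 to 2.71, limma adjusted p = 0.011) and Cox6b2 by 1.06 (0.47 to 1.66, limma adjusted p = 0.035) on day 18 against day 2.

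The other rises on day 18 were smaller. Cox6a1, the ubiquitous isoform of subunit 6A, had 2665 in high-KLF4 and 2934 in low-KLF4 cells on day 18, against 1860 and 1880 on day 2, a difference of 0.58 (limma adjusted p = 0.020). Atp5e, the epsilon subunit, had 647.5 and 697.7, against 467.2 and 458.5, a difference of 0.54 (limma adjusted p = 0.031). Cox7a2l, a factor in supercomplex assembly, differed by 0.45 (limma adjusted p = 0.037) and Atp5g2, which encodes a copy of the c subunit of the rotor ring, by 0.38 (limma adjusted p = 0.031). Atp5g1, which encodes the same c subunit with another import sequence, went the other way, with 4840 and 5812 on day 18, against 7087 and 7018 on day 2, a difference of -0.41 (limma adjusted p = 0.036). Atp5g3, the third gene of this set, had 4216 and 3877, against 4630 and 4843, and did not pass. The values of Atp5g2 are from the brightest of its 3 probes and those of Atp5g1 from the brighter of its 2.

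The 7 falls on day 18 were 3 genes of complex I, 1 of complex II, 2 of complex III and, in complex V, Atp5g1. Ndufa8, an accessory subunit of complex I, had 1471 in high-KLF4 and 1303 in low-KLF4 cells on day 18, against 2467 and 2315 on day 2, a difference of -0.79 (95% interval -1.14 to -0.43, limma adjusted p = 0.017). Ndufs8, a conserved iron-sulfur subunit of complex I, had 2214 and 2332, against 3804 and 3797, a difference of -0.74 (limma adjusted p = 0.012). Sdhd had 1444 and 1242, against 1977 and 2023, a difference of -0.58 (limma adjusted p = 0.036). Uqcrc1 and Uqcrc2, the core proteins of complex III, differed by -0.54 (limma adjusted p = 0.021) and -0.34 (limma adjusted p = 0.043), and Ndufa10 by -0.51 (limma adjusted p = 0.0091). The day 18 and day 2 arrays overlapped in none of the 14 genes, and arrays did not overlap for 28 genes that were higher and 25 that were lower, against 23.1% and 37.8% of all probes.

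These 14 calls rest on 4 arrays of days 2 and 18. Leaving out any 1 of these arrays left fewer chain genes called in each direction, and fewer of all probes as well. Ndufa4l2 was called each time. The pluripotency markers summed to 17720 in high-KLF4 and 25680 in low-KLF4 cells on day 18, against 849.3 and 761.5 on day 2, and their part in these changes was not tested.

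Among the comparisons made, that of keratinocytes with mESCs called the most chain genes and also the most of all probes. In keratinocytes 7 of 79 genes were higher and 15 lower than in mESCs (27.8% called), where 38.1% of all probes were called, 17.7% higher and 20.4% lower. The lower genes were 5 of complex I, 1 of complex II, 2 of complex III, 3 of complex IV and 4 of complex V, and the higher genes 3 of complex I, 1 of complex III and 3 of complex IV. The largest falls were those of Cox7a1 at -2.70 (95% interval -3.26 to -2.14, limma adjusted p = 5.4e-05) and Cox6b2 at -2.47 (-2.93 to -2.01, limma adjusted p = 3.1e-05). Ndufa4l2 differed by -0.86 (limma adjusted p = 0.0067).

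Ndufs1, the largest iron-sulfur subunit of complex I, had 682 and 654 in keratinocytes and 1177 and 1439 in mESCs, a difference of -0.96 (limma adjusted p = 0.00024). Ndufs5, an accessory subunit of the same complex, had 715 and 699, against 247 and 245, a difference of 1.52 (95% interval 1.19 to 1.86, limma adjusted p = 8e-05). Ndufs1 in keratinocytes was thus below, and Ndufs5 above, both mESC arrays, and both were called in all 10 alternatives run. Ndufs6 differed by 0.42 (limma adjusted p = 0.046), a call that 4 of 10 alternatives did not keep.

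In complex III, Uqcrh, the hinge protein beside cytochrome c1, had 1250 and 805 in keratinocytes and 1781 and 2521 in mESCs, a difference of -1.08 (limma adjusted p = 0.010). Uqcrc1 had 3309 and 3106, against 4718 and 4658, a difference of -0.55 (limma adjusted p = 0.0010). Uqcrq had 2510 and 2611, against 1372 and 1651, a difference of 0.77 (limma adjusted p = 0.0039). The complex thus held members that moved in opposite directions, with no overlap between the arrays of either cell type in these 3 genes.

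Of the isoforms of subunit 6A, both were higher in keratinocytes. Cox6a2, the heart and skeletal muscle isoform, had 426 and 385, against 192 and 183 in mESCs, a difference of 1.11 (limma adjusted p = 0.00068). Cox6a1 had 3610 and 3617, against 1973 and 2169, a difference of 0.80 (limma adjusted p = 0.00054). The summed signal of 4 muscle markers was 731.6 and 689.2 in keratinocytes, against 591.8 and 641.8 in mESCs. Of the muscle-type isoforms, Cox6a2 was thus higher in keratinocytes and Cox7a1 lower, while Cox8b had 90.7 and 79.7, against 71.5 and 67.7, and was dim on every array.

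Of complex V only falls were called: Atp5k, subunit e, had 354 and 320 in keratinocytes and 585 and 566 in mESCs, a difference of -0.77 (limma adjusted p = 0.00017), and Atp5pb, subunit b, differed by -0.40 (limma adjusted p = 0.0050). Atp5a1 and Atp5j were also called, at -0.38 and -0.40. In complex II, Sdhb had 1054 and 1012, against 1293 and 1475, a difference of -0.42 (limma adjusted p = 0.036), and Sdha, Sdhc and Sdhd were at -0.09, -0.18 and -0.27 and did not pass. Without mESC array 2 or without keratinocyte array 1, fewer chain genes were called lower, and fewer of all probes were called in each direction. Calls of higher chain genes fell without keratinocyte array 1 and did not fall without mESC array 2.

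**Figure D4:**
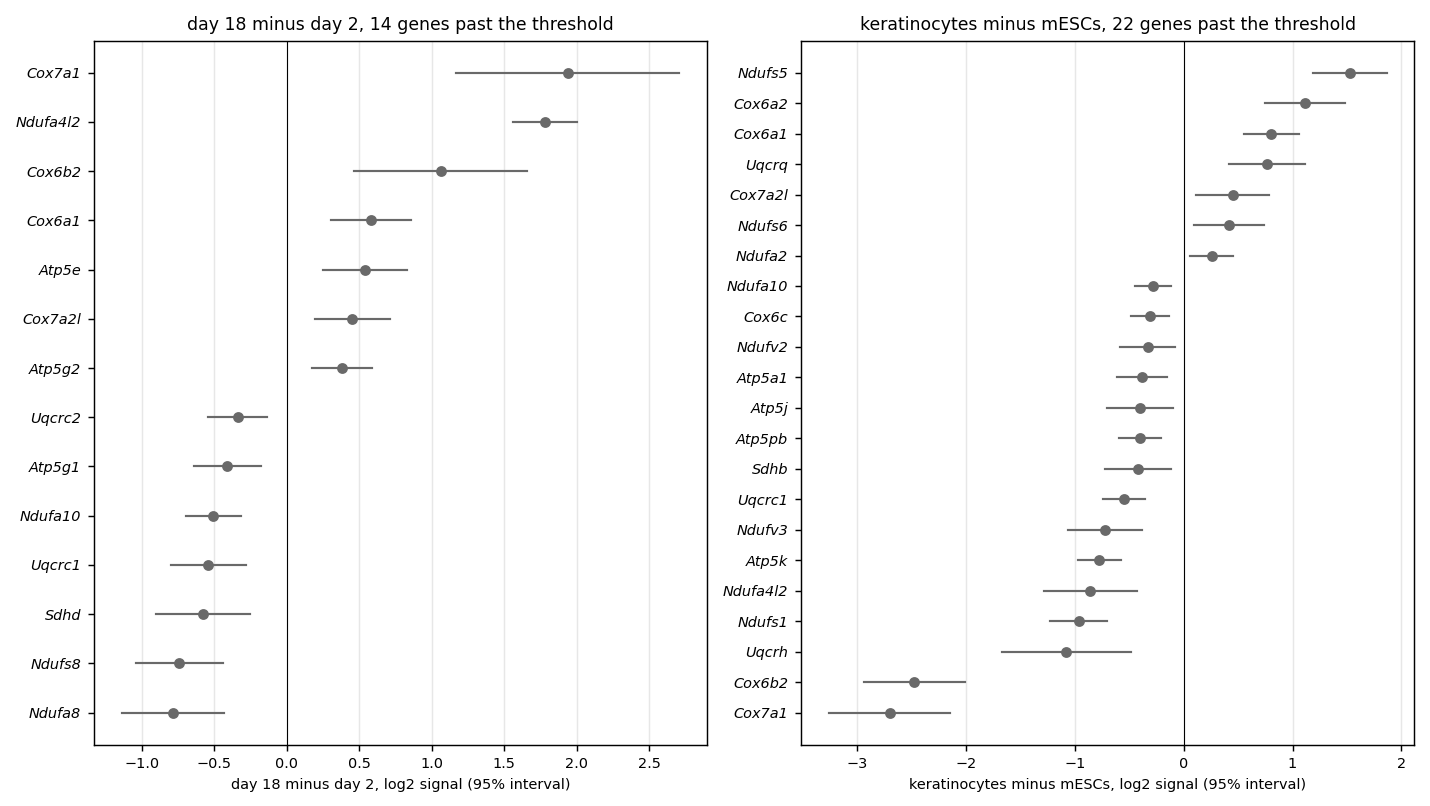
Log2 differences (horizontal axes) with 95% intervals for the 14 genes called on day 18 against day 2 (left) and the 22 called in keratinocytes against mESCs (right), each row a gene. On the left Cox7a1 and Ndufa4l2 lie at 1.94 and 1.78, and on the right Cox7a1 and Cox6b2 lie at -2.70 and -2.47 and Ndufs5 at 1.52.

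Few chain genes were called between the iPSC clones and mESCs. Of 79 genes 1 was higher and 1 lower in the 4 clones, where 4.31% of all probes were called, and 21 had an unadjusted p under 0.05 (26.6%), against 18.1%. Estimates were below 0 for 55 genes (69.6%), against 55.6% of all probes. All clones lay below both mESC arrays for 34 genes (43.0%), against 22.4%, and above both for 7 (8.86%), against 19.6%. Ndufs5 had 402, 364, 368 and 386 in clones A10, H10, A7 and A9, against 247 and 245 in mESCs, a difference of 0.63 (95% interval 0.33 to 0.92, limma adjusted p = 0.034). Ndufs1 had 872, 923, 896 and 905, against 1177 and 1439, a difference of -0.53 (-0.76 to -0.31, limma adjusted p = 0.024). In both genes all clones lay on 1 side of both mESC arrays. Neither gene was called without any 1 of the 4 clones or without mESC array 2. Without mESC array 1, Ndufs1 and 4 further genes were called lower and Ndufs5 was not called.

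Several members differed between arrays of 1 group. Array 2 minus array 1 exceeded 0.5 in size for 15 of 79 genes in day 8 high-KLF4 cells (19.0%), against 18.6% of all probes, and for 7 in day 8 low-KLF4 cells (8.86%), against 19.1%. In mESCs it did so for 11 genes (13.9%), against 3.07% of all probes, and in keratinocytes for 1 (1.27%), against 4.09%. Between the 2 clones of either cassette it did so for 0. Uqcr11, named after its values were seen, is a small subunit of complex III. It had 605 and 1719 on the day 8 high-KLF4 arrays, 766 and 2258 on the day 8 low-KLF4 arrays and 781 and 1461 on the mESC arrays, with array 1 first. It had 721 to 768 in the 4 clones. The array numbered 2 was thus the high one in each of the 3 groups.

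Atp5md had the opposite pattern. Its arrays 1 and 2 had 3437 and 1808 in day 8 high-KLF4 cells, 3864 and 2061 in day 8 low-KLF4 cells, and 7477 and 3595 in mESCs. Over the 79 genes, the array 2 minus array 1 differences of the 2 cassettes on day 8 correlated at r = 0.884 across genes, against 0.735 across all tested probes. Genes are not independent replicates, and the arrays with the same number share a marker profile, as the fibroblast sums show. Across genes those differences correlated with the mESC differences at r = 0.234 in high-KLF4 and 0.155 in low-KLF4.

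**Figure D5:**
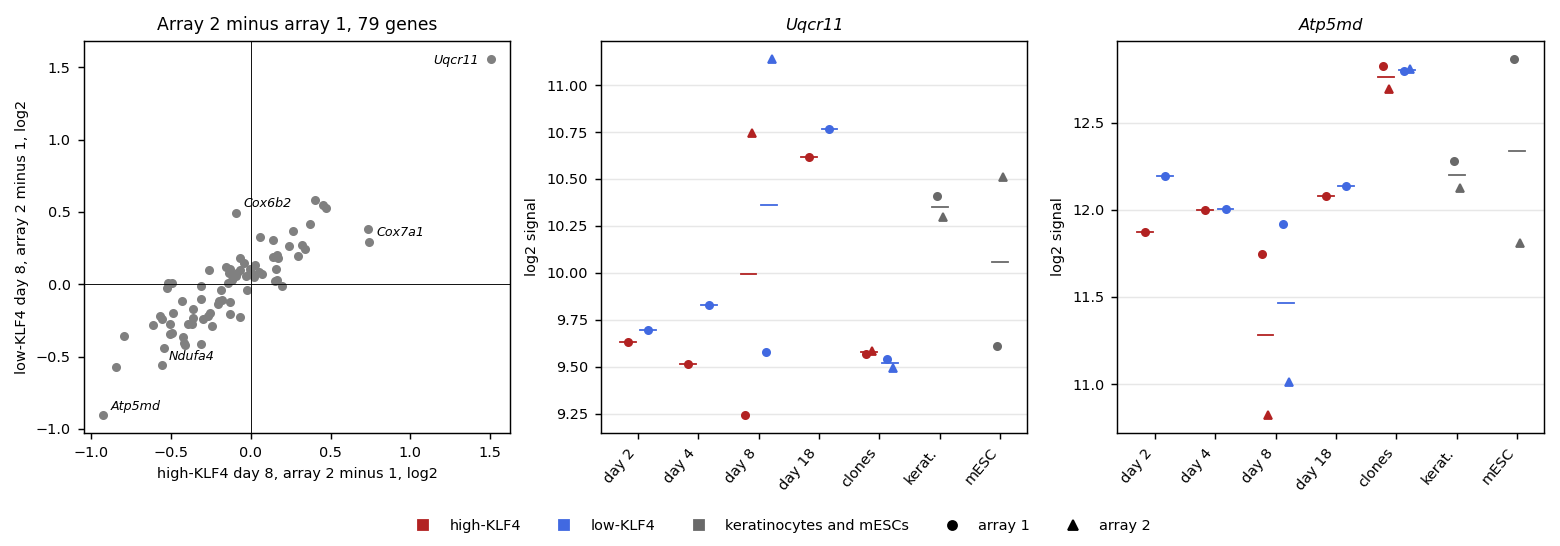
Left, array 2 minus array 1 in log2 signal on day 8 for 79 genes, high-KLF4 on the horizontal axis and low-KLF4 on the vertical axis; middle and right, log2 signal of Uqcr11 and Atp5md on 18 arrays, with the colors and marks of the gene plots. The points run along the diagonal, with Uqcr11 at 1.51 and 1.56 and Atp5md at -0.93 and -0.91.

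Lists of other mitochondrial genes are given beside the subunits by their counts. On day 8, high-KLF4 cells differed from low-KLF4 cells in 0 of 77 mitochondrial ribosome genes, 1 of 43 assembly factors, 1 of 17 genes of the TCA cycle and 1 of 23 regulators of mitochondrial biogenesis, where 3.99% of all probes were called. These were Sdhaf1, an assembly factor of complex II, at -0.52 (limma adjusted p = 0.032), Pcx, the pyruvate carboxylase that feeds the cycle, at -2.29 (limma adjusted p = 0.0013), and Esrrb, a nuclear receptor that is also a pluripotency gene, at 1.48 (limma adjusted p = 0.0028). The median of the ribosome genes was -0.07 and that of the assembly factors -0.05, against -0.16 for the subunits. Against their clones, 27 of the 77 ribosome genes were lower and 3 higher in day 8 high-KLF4 cells, where 14.7% and 13.5% of all probes were, and 18 were lower and 4 higher in day 8 low-KLF4 cells, where 10.8% and 8.43% were.

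On day 18 against day 2, when 8.56% of all probes were lower and 5.45% higher, 15 of the 77 ribosome genes were lower and 2 higher, and 11 of the 43 assembly factors were lower and 0 higher, with Ndufaf4, for complex I, at -1.64 (limma adjusted p = 0.0026) and Sdhaf2, for complex II, at -1.16 (limma adjusted p = 0.0031). Of the TCA cycle 4 of 17 genes were lower, Idh3a and Mdh2 the most, at -0.72 and -0.64. Of 18 genes of the hypoxia response, Ndufa4l2 among them, 6 were higher and 0 lower, with a median of 0.67. Car9, a carbonic anhydrase, stood at 2.49 (limma adjusted p = 0.019) and Pdk1, a kinase that inhibits pyruvate dehydrogenase, at 1.80 (limma adjusted p = 0.019). In keratinocytes against mESCs the hypoxia list held 3 higher and 7 lower genes of 18, where 17.7% and 20.4% of all probes were. Egln3 stood at -3.42 and Adm at 3.51.

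Of the 24 chain genes that the symbol rule leaves out, such as cytochrome c, the ubiquinone enzymes and the ATP carriers, 1 was higher and 3 lower on day 18 against day 2. Of all probes, 5.45% were higher and 8.56% lower. Cyct, the testis form of cytochrome c, differed by 0.50 (limma adjusted p = 0.020), and Coq3, an enzyme of ubiquinone synthesis, by -0.95 (limma adjusted p = 0.0025). Cyct was also lower on day 8 than in the clones, at -1.59 in high-KLF4 (limma adjusted p = 0.00032) and -1.61 in low-KLF4 (limma adjusted p = 0.00050). In keratinocytes, the ribosome list had 35 lower and 7 higher of 77 genes and the assembly factors 14 lower and 9 higher of 43, relative to mESCs, where 20.4% of all probes were lower and 17.7% higher.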

How the data were processed

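The 18 arrays are of the Affymetrix Mouse Gene 1.0 ST type. The authors ran RMA in GeneSpring (background correction, quantile normalization, then 1 value per transcript) and deposited the resulting intensity values. The genome build is not given in the sources used here. These are linear, between 20.2 and 19538.7 over all arrays, the medians of the 18 arrays lay between 139.4 and 161.6, and the number of arrays limits the precision. Arrays were named by the labels, and all columns mapped to a sample.

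Log2 was taken, and limma 3.58.1 (R 4.3.3) was fitted to the 23410 of 28853 probes with at least 1 symbol, 1 fit to all 18 arrays in 12 groups (6 residual and 2.25 prior degrees of freedom) and 1 fit to the 10 sorted arrays with day and cassette as terms, which takes the cassettes as repeats of a day. Benjamini-Hochberg adjustment ran over all 23410 probes, and a call is an adjusted p under 0.05. With 2 arrays against 2, an exact permutation test cannot go below p = 0.333. The methods call the repeated day 8, keratinocyte and mESC arrays separate experiments, and the labels name no animals or cultures. Groups of 1 array have values and no test of their own.

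The members and the 15 gene lists were chosen with earlier results of these data known. Named genes are, per comparison, the 2 largest called changes each way in a complex, the complex II genes, the isoform pairs and the 2 largest called changes each way of the other lists; other names in the text and plots were chosen after their values were seen. Alternatives were limma-trend, robust eBayes, a second quantile normalization, a filter on the dimmest 30% of probes, the mean over probes, fits of fewer arrays, replicate blocks, the methods' t-test and leaving out each array. The limma step was tested on simulated data. Python 3.11.15, pandas 2.3.3 and matplotlib 3.10.9 made counts and figures.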

Additional observations from a re-analysis of the deposited data

How the results depend on the processing

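Counts are of the 79 genes unless another number is given. No called gene changed direction in any alternative run, while the median of all 79 genes on day 4 of low-KLF4 turned below 0 with centred arrays. Over the called genes, 411 of the alternatives' estimates kept their call and 181 lost it, and of the complex medians 124 moved by less than the spread between replicates and 26 by more.

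A second quantile normalization called 2 genes lower in day 8 high-KLF4 than in day 8 low-KLF4 cells (Cox6b2 and Ndufa2, against 0), 5 higher and 1 lower in day 8 low-KLF4 against the clones (against 2 and 3), and 0 higher in the clones against mESCs (against 1). Of all 23410 probes it called 417 lower between the cassettes on day 8. It called 2055 higher and 2507 lower in day 8 low-KLF4 against the clones, and 474 higher in the clones against mESCs. limma-trend gave 4 higher in keratinocytes (against 7), and the arrays of days 2 and 8 alone 0 higher on day 8 (against 1). Of all probes these fits called 4116 and 3 higher. Of the 42 genes whose mESC arrays lay within 0.25 of each other, an alternative chosen after seeing the data, 3 were higher on day 18 (against 7 of 79) and 0 lower in the clones against mESCs (against 1 of 79). Of all probes, 5.45% were higher on day 18 and 2.28% lower in the clones. The 42 are fewer genes, so a lower count alone does not show a lost call. No mESC array enters the fit of day 18 against day 2.

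With the replicate number as a block, 0 genes were called by limma between the cassettes on day 8, as without it (10 with an unadjusted p under 0.05 in a fit of the 4 day 8 arrays and 5 in a fit of 8 arrays), 1 was lower over days 2 to 18 (Ndufa4l2 at -0.37, limma adjusted p = 0.044, against 0), and in keratinocytes 4 were higher and 9 lower (against 7 and 15). Of all probes, the block called 102 higher and 12 lower on day 8 in the fit of 4 arrays, and 137 and 27 in that of 8. Over days 2 to 18 it called 90 probes lower, and in keratinocytes 3462 higher and 4166 lower. Array 2 minus array 1 correlated at 0.735 across all probes between the cassettes on day 8 and at -0.0329 to 0.0206 between all other pairs of groups, and the labels do not say what arrays of 1 number share. The methods' t-test called 0 of the 79 genes between the cassettes on day 8 after Benjamini-Hochberg adjustment, with 5 at an unadjusted p under 0.05.

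Leaving out each array in turn gave 0 to 3 genes lower in day 8 high-KLF4 than in day 8 low-KLF4 cells, 0 to 1 higher and 6 to 20 lower in high-KLF4 against its clones, 0 to 2 higher and 0 to 3 lower in low-KLF4 against its clones, and 0 to 1 lower in the interaction. It gave 0 to 1 higher on day 8 against day 2, 1 to 3 higher and 0 to 3 lower on day 18 against day 2, 4 to 8 higher and 9 to 12 lower in keratinocytes against mESCs, and 0 higher and 0 to 5 lower in the clones against mESCs. Calls among all probes varied between the same fits in each of these comparisons. The ranges alone therefore do not show instability particular to chain genes.

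The median of the 79 genes relative to the mESC mean depended on centring. With each array centred on the median of all tested probes it was -0.105 in low-KLF4 on day 2 (against -0.0969), -0.0498 on day 4 (against 0.0129), -0.118 and -0.0865 on day 8 (against -0.0765 and -0.0689) and -0.182 on day 18 (against -0.0873), and in high-KLF4 -0.202 on day 2 (against -0.105) and -0.182 on day 18 (against -0.0593). Without the dimmest probes it was 0.00527 on day 4 and -0.0743 on the day 8 array 2 of low-KLF4, and with the mean over probes -0.105 on day 2 of low-KLF4. The cause of these changes was not tested.

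On days 2, 4 and 18 each cassette has 1 array, and the fits take a lone array, there or after another is left out, to vary as arrays of the other groups do. Leaving out an array also changed how many of all probes were called, which limits what the counts of chain genes in such fits can show. The number of arrays and the lack of a detection limit bound what the dim genes Cox7b2 and Cox8b can show.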
